A study of Caenorhabditis elegans with 12 samples.

Results

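The comparison described here set cells in which a GFP transgene reported an active mir-124 promoter (GFP+) against cells without GFP (GFP-), both from mir-124 mutant embryos of Caenorhabditis elegans. The arrays were chosen by their titles, which mark 3 arrays of mutant GFP+ cells and 3 of mutant GFP- cells, so 6 of the 12 arrays of the series entered the comparison. The other 6 arrays held GFP+ and GFP- cells of wild-type embryos and were used only to set the mutant changes beside a second strain. All 4 groups, per the labels' protocols, carried the reporter pmir-124::GFP together with a lin-15(+) rescue marker, injected into lin-15(n765) worms, integrated with X-rays and then outcrossed into N2, the standard laboratory strain. The mutant groups are labelled by strain as mir-124, and the allele was not stated. Embryos were released from adults grown at 20 °C and dissociated, their cells were kept in culture for 24 hours, and 500000 cells were sorted into each sample before the RNA was extracted, amplified and hybridised. The fractions are therefore defined by the fluorescence of a transgene in cultured embryonic cells, and not by measured mir-124. The series describes the triplicates as biological, and p-values here measure the spread between these samples, since separate cultures or sorts are not stated.

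A microRNA is a short RNA that pairs with messenger RNAs and lowers their stability or translation, and mir-124 belongs to a family that is conserved in animals and known for its expression in nervous systems. In the worm its promoter is known to be active in many ciliated sensory neurons. These neurons end in a cilium, which is built and maintained by intraflagellar transport (IFT), the movement of the protein complexes IFT-A and IFT-B along microtubules by kinesin and dynein motors. The BBSome is a further complex of this machinery, and the transition zone is the gate at the base of the cilium. Many genes for these proteins carry an X-box in their promoters and are switched on by the RFX-type transcription factor DAF-19.

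Values are the deposited log2 signals of probe sets, and changes are mutant GFP+ minus mutant GFP- on the log2 scale, given with the standard error of the limma fit (n = 3 arrays each). The array medians lay between 5.39 and 5.48, and the correlation across probe sets was 0.968 to 0.991 between arrays of the same fraction and 0.888 to 0.939 between fractions. The spread between replicates was somewhat larger in GFP- cells, with a median SD over genes of 0.155 in GFP+ cells and 0.216 in GFP- cells. Amplified RNA can be shortened at its 5′ end. The gap between the 3′ and middle probe sets of 9 control RNAs was 1.84 to 2.08 on the 3 mutant GFP+ arrays and 1.59 to 2.04 on the 3 mutant GFP- arrays, so these ranges overlapped. The wild-type pair numbered 3 stood apart with gaps of 3.59 in GFP+ and 3.55 in GFP- cells, against 1.88 to 2.07 on the other wild-type arrays. The platform annotation assigned 0 probe sets to mir-124, and the loss of the microRNA could not be read from its own transcript.

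Between mutant GFP+ and GFP- cells, 2078 of 17118 genes were higher in GFP+ cells and 2033 were lower (limma adjusted p under 0.05, adjusted over 22548 probe sets). These are 12.1% and 11.9% of all genes, and they are the background against which the gene groups below can be read. The median change over all genes was 0.00846. Of the genes that changed, 1208 rose and 1224 fell by at least 1 on the log2 scale, and 153 rose and 128 fell by at least 3. The replicate ranges of the 2 fractions did not overlap for any of the 4111 genes called. With 3 arrays each, a call at this threshold leaves little room for overlap, so this count is no separate support. In bulk samples of this kind, fewer cells of a type and less RNA per cell cannot be told apart. Over probe sets, the fit called 5163, and this count fell to 3410 without GFP+ replicate 1 and to 3103 without GFP+ replicate 2. Of the genes that rose by at least 3, 34 had a mean in GFP- cells below 4.06, the lowest lower quartile of the 6 arrays, and 13 of the genes that fell by at least 3 had such a mean in GFP+ cells; the size of these changes depends on the dim end of the signal scale.

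**Figure D1:**
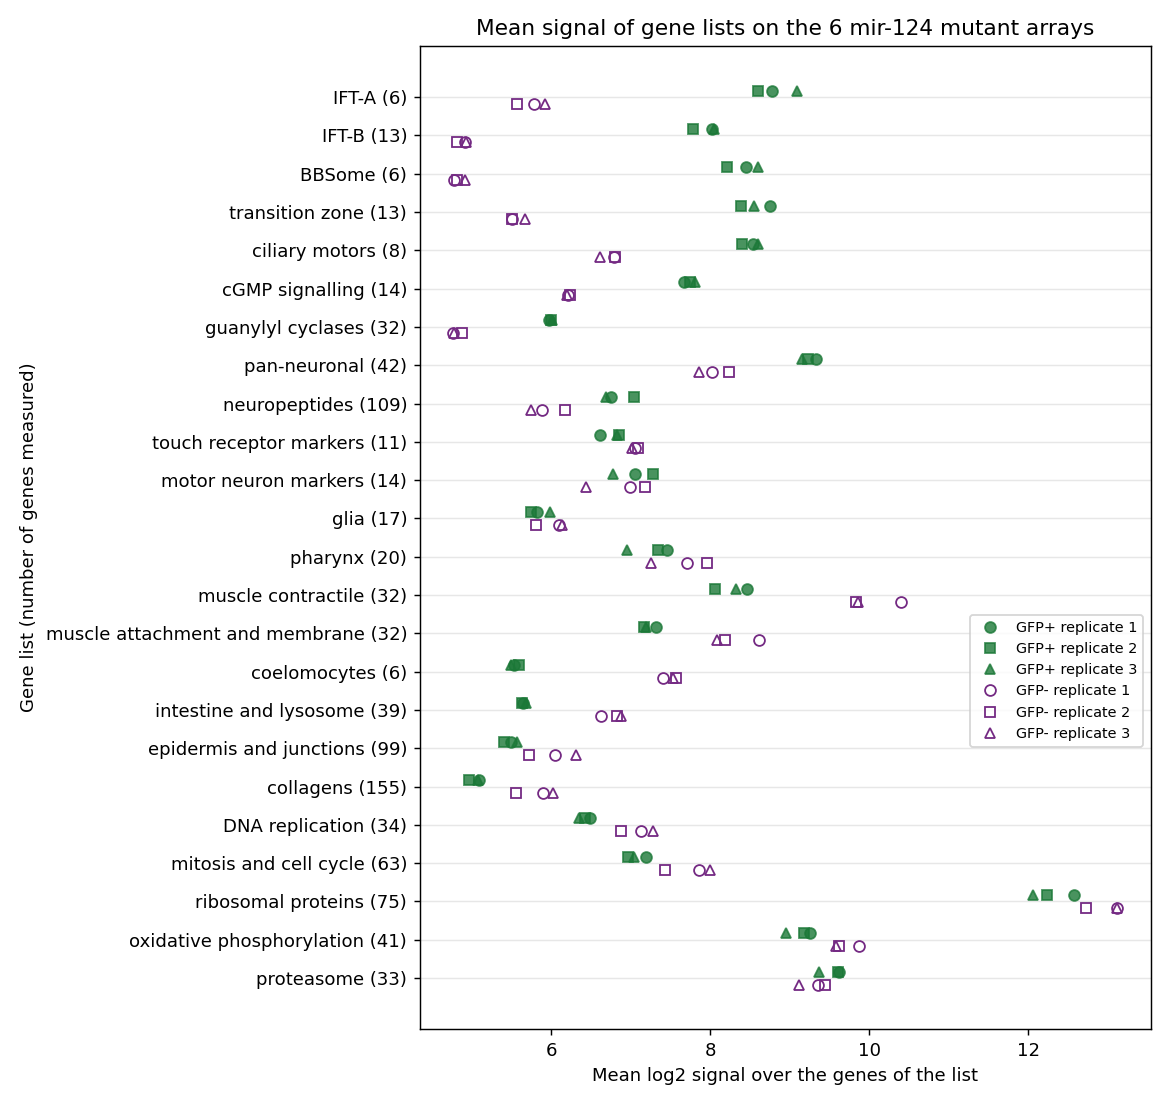
Mean log2 signal over the genes of each list (x axis), 1 point per mutant array, filled for GFP+ and open for GFP- cells, with the number of measured genes in brackets. The IFT, BBSome and transition zone means of the GFP+ arrays lay between 7.78 and 9.09 and those of the GFP- arrays between 4.77 and 5.92. Muscle, coelomocyte and collagen means lay lower in GFP+ cells, and the motor neuron, glia, pharynx and proteasome means overlapped. On each replicate number, motor neuron and proteasome means were higher in GFP+ cells, and glia and pharynx means were lower.

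The largest rise was that of R102.2, a gene named only by its clone, which gave 11.90, 11.95 and 11.98 in mutant GFP+ cells, against 5.33, 5.44 and 5.40 in mutant GFP- cells. All 3 arrays of each fraction lay within a narrow band, and the change was 6.56 ± 0.106 (adjusted p = 2.45e-06), a 94.2-fold difference. Next came F10E9.1, with 10.12, 10.06 and 9.82 in GFP+ cells against 3.59, 4.10 and 4.47 in GFP- cells (5.95 ± 0.231), and xbx-9, a gene named for its X-box, with 10.70, 10.48 and 11.37 in GFP+ cells against 4.71, 4.84 and 5.27 in GFP- cells (5.91 ± 0.262). A second gene of the xbx class, xbx-3, rose by 5.27. Genes with known roles in sensory neurons stood among the 15 largest rises. The receptor guanylyl cyclase daf-11 had 8.70, 8.79 and 9.01 in GFP+ cells and 3.80, 3.81 and 4.04 in GFP- cells (4.95 ± 0.137, adjusted p = 2.35e-05). The regulator of G protein signalling rgs-3 rose by 4.86, the neuropeptide gene nlp-3 by 5.18, the sulfotransferase ssu-1 by 4.89, the annexin nex-4 by 5.05 and the IFT-A subunit che-11 by 4.87. The other members of this group, Y41E3.5, T05C12.8, F13E6.2, erp-44.3 and R02E12.4, rose by between 4.72 and 5.70.

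The 15 largest falls held genes of several kinds. The aspartyl protease asp-5 gave 4.26, 4.41 and 4.40 in mutant GFP+ cells and 8.96, 10.40 and 10.40 in mutant GFP- cells, a change of -5.56 ± 0.382 (adjusted p = 0.0002). Its relative asp-6 fell by 4.15, the cysteine protease inhibitor cpi-1 by 4.79, and the saposin-like spp-10 by 4.72. The GFP+ values of asp-5 and asp-6 were nearly the same on the 3 arrays, while their GFP- values were lowest on replicate 1. The small heat shock protein gene hsp-12.1 had 5.02, 4.76 and 5.22 in GFP+ cells and 9.86, 9.54 and 9.46 in GFP- cells (-4.62 ± 0.17, adjusted p = 2.82e-05). The enzyme of pyrimidine breakdown upb-1 fell by 4.93, the lipid-binding protein gene nrf-5 by 4.14 and the touch neuron collagen mec-5, made outside the neurons, by 4.18. Among the 15 largest falls the cuticle collagen dpy-14 was the least even. It had 6.48, 4.72 and 6.94 in GFP+ cells and 10.54, 8.59 and 11.88 in GFP- cells, with the lowest value of each fraction on replicate 2, and a change of -4.29 ± 0.898 (adjusted p = 0.0156); without GFP+ replicate 2 the adjusted p was 0.0525 and without GFP- replicate 1 it was 0.0567. The probe sets of asp-5, asp-6, upb-1, spp-10, dbd-2, Y41E3.5 and che-11 have names ending in _s_at or _x_at, which can bind transcripts of related genes. Probe sets with such names stood for 407 of the genes called higher and 761 of those called lower.

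**Figure D2:**
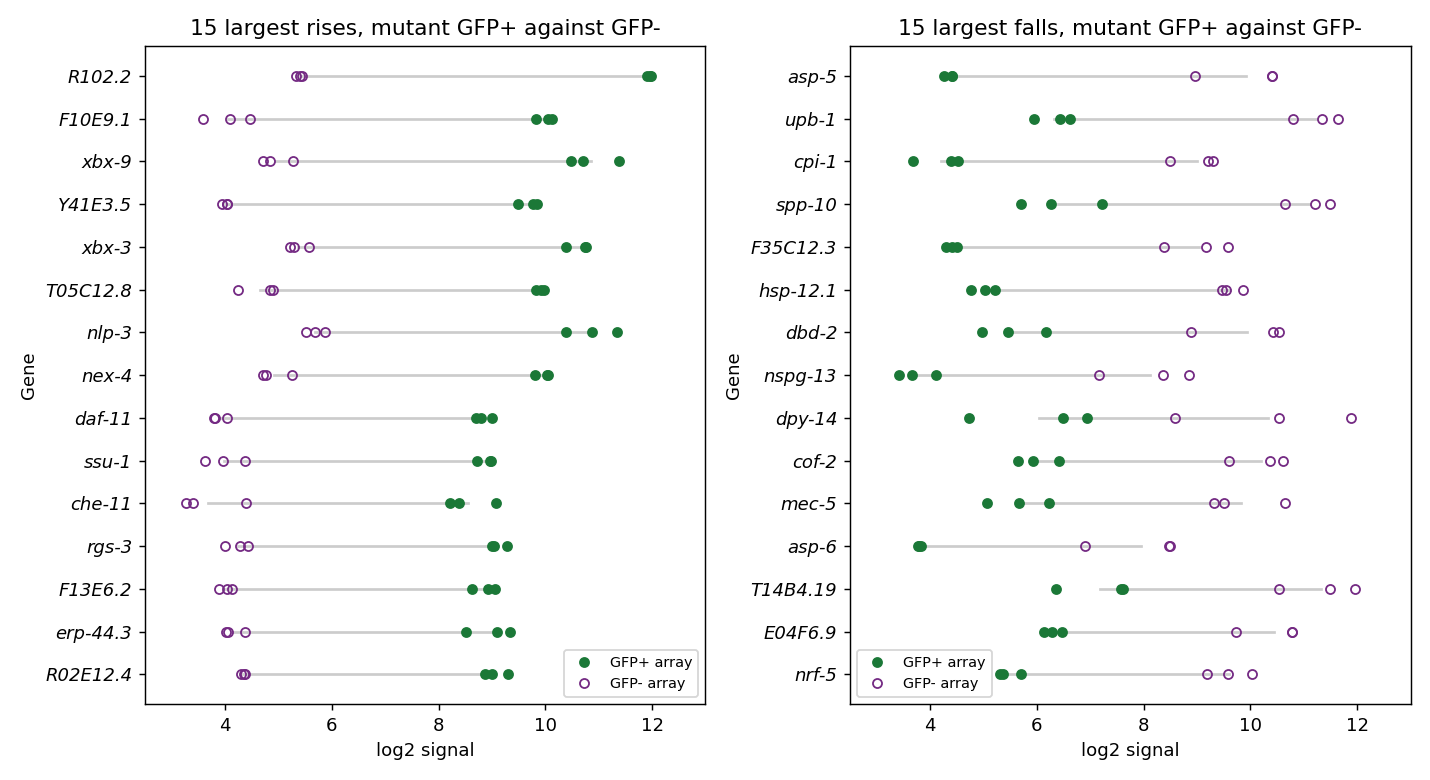
Log2 signal (x axis) of the 15 genes with the largest rises and the 15 with the largest falls in mutant GFP+ against mutant GFP- cells, 1 point per array, with a line joining the 2 means. Genes were chosen without overlap of the fractions, and dpy-14 has the widest spread within a fraction.

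Every measured gene of the IFT complexes was higher in mutant GFP+ cells: 6 of 6 for IFT-A, 13 of 13 for IFT-B and 6 of 6 for the BBSome, beside 12.1% of all genes, with median changes of 3.10, 3.13 and 3.55. The mean of the 13 IFT-B genes was 8.02, 7.78 and 8.05 on the GFP+ arrays, against 4.92, 4.82 and 4.92 on the GFP- arrays. Within IFT-A, che-11 had 8.39, 8.21 and 9.07 in GFP+ and 3.41, 3.27 and 4.40 in GFP- cells (4.87 ± 0.351), and ift-43 changed least, with 10.82, 10.87 and 10.78 in GFP+ and 10.04, 9.88 and 10.05 in GFP- cells (0.83 ± 0.111, adjusted p = 0.00268). The same unevenness was seen in IFT-B. The Rab-like GTPase ifta-2 had 9.81, 9.48 and 9.40 in GFP+ and 4.86, 4.78 and 5.20 in GFP- cells (4.62 ± 0.171), dyf-13 rose by 4.34 and osm-1 by 3.72, while dyf-1 and dyf-6 rose by 1.21 and 0.98. BBSome subunits lay closer together, from 3.06 for osm-12 to 4.15 for bbs-5. The values of bbs-5 were 10.54, 10.22 and 10.25 in GFP+ cells and 6.22, 6.15 and 6.18 in GFP- cells.

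The 13 transition zone genes all rose as well (median 2.86), and the arrays of each fraction lay close together, with list means of 8.75, 8.38 and 8.56 in GFP+ cells and 5.502, 5.51 and 5.67 in GFP- cells. The membrane protein gene tmem-231 led them, with 10.34, 10.19 and 9.93 in GFP+ cells and 5.69, 6.07 and 5.78 in GFP- cells (4.31 ± 0.163, adjusted p = 2.98e-05). The gene of the nephrocystin module nphp-4 had 9.61, 8.86 and 9.52 in GFP+ and 5.07, 4.98 and 5.40 in GFP- cells (4.18 ± 0.23), and nphp-1 rose by 3.07. The smallest changes of this list were those of mks-3 (1.84 ± 0.131) and mks-1 (1.66 ± 0.165), both of the Meckel syndrome module. Among the motors 6 of 8 rose. The heavy chain of the dynein that runs back down the cilium, che-3, had 10.44, 10.03 and 10.65 in GFP+ cells and 6.01, 6.36 and 6.72 in GFP- cells (4.01 ± 0.231), its light intermediate chain xbx-1 rose by 3.28, and the kinesin osm-3, which builds the distal part of sensory cilia, rose by 1.60. The probe sets of che-3 and osm-3 have names ending in _s_at, and those of the heterotrimeric kinesin in _x_at. All of these can bind transcripts of related genes. The heterotrimeric kinesin changed less. Its subunits kap-1 and klp-20 rose by 1.03 and 0.99, whereas klp-11 did not pass the test (0.33 ± 0.142, adjusted p = 0.146) and its ranges overlapped, with 10.69, 10.48 and 10.65 in GFP+ and 10.496, 10.19 and 10.13 in GFP- cells. The kinesin klp-6 was dim in both fractions and did not pass either (0.34 ± 0.116, adjusted p = 0.0767).

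Of 22 GTPases, kinases and other regulators of cilia, 17 rose and 0 fell (median 2.00), led by the GTPases rab-28 (4.13 ± 0.184) and arl-3 (4.10 ± 0.206) and by dyf-19 (3.63 ± 0.175). The RFX factor daf-19 itself had 11.496, 11.24 and 11.45 in mutant GFP+ cells and 9.70, 9.91 and 9.44 in mutant GFP- cells, a change of 1.71 ± 0.158 (adjusted p = 0.000574). This rise is much smaller in size than those of xbx-9 and xbx-3. Of the 6 genes of the RFX and X-box list, 5 rose; xbx-5 did not pass (0.35 ± 0.15, adjusted p = 0.15), and the call of xbx-6 (0.66 ± 0.15, adjusted p = 0.0208) was lost without GFP+ replicate 1 or 3 or GFP- replicate 1 or 2, at adjusted p of up to 0.0766. Outside the motors and regulators, the beta-tubulin tbb-4, known from ciliated neurons, had 10.28, 9.62 and 9.53 in GFP+ and 7.11, 6.60 and 6.90 in GFP- cells (2.94 ± 0.235). Of 16 tubulin genes, 5 rose and 1 fell (median 0.42), and the broadly expressed tba-1, tba-2, tbb-1 and tbb-2 had changes between -0.02 ± 0.196 and 0.37 ± 0.18 that did not pass. The rises of tba-6 and tba-9 were lost without GFP+ replicate 3 or GFP- replicate 1 and without GFP+ replicate 1 or 2, at adjusted p of up to 0.0704 and 0.0624.

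In sensory neurons that use cyclic GMP, guanylyl cyclases make the messenger, and phosphodiesterases, encoded by some of the pde genes, break it down. The channel subunits TAX-4 and TAX-2 open in response to cyclic GMP. The list of cGMP signalling held 14 genes, with pde genes taken in whatever their substrate. Of these 14, 10 rose and 0 fell (median 1.33). The channel subunit gene tax-4 had 6.53, 6.54 and 6.67 in mutant GFP+ cells and 3.11, 2.87 and 3.49 in mutant GFP- cells (3.42 ± 0.176, adjusted p = 7.6e-05), and its partner tax-2 had 5.70, 6.03 and 5.72 in GFP+ and 3.08, 3.58 and 3.44 in GFP- cells (2.45 ± 0.172). Both genes lay below 4.06 on all 3 GFP- arrays. The cyclase odr-1 rose by 1.83, pde-5 by 2.91 and pde-1 by 1.83. The kinase egl-4 rose by 0.84, a call lost without GFP+ replicate 2 (adjusted p = 0.0559). The calls of pde-2 and pde-4 (0.63 ± 0.17 and 0.50 ± 0.141) were the least steady. That of pde-2 was lost without any 1 array except GFP- replicate 3, and that of pde-4 without any 1 of the 6, at adjusted p of up to 0.118 and 0.134, and pde-4 also lost it when the replicate number was made a block (adjusted p = 0.0513). Neither pde-3 (0.45 ± 0.137) nor the kinase pkg-2 (-0.54 ± 0.165) passed; with the block their adjusted p was 0.039 and 0.0433, and that of pkg-2 was 0.0448 without GFP+ replicate 3. Of 32 guanylyl cyclases, 23 rose and 0 fell (median 0.99), with the mean of the list at 5.97, 5.99 and 6.003 on the GFP+ arrays and 4.76, 4.87 and 4.78 on the GFP- arrays. The soluble cyclase gcy-33 had 9.55, 9.51 and 8.98 in GFP+ and 4.79, 5.34 and 5.46 in GFP- cells (4.15 ± 0.234). In 12 of the 32 the mean signal in GFP- cells was below the mean lower quartile of the GFP- arrays. In 7 the mean in GFP+ cells was below that of the GFP+ arrays.

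Of the 7 sensory TRP channel genes, 3 rose and 1 fell. The gene ocr-4 had 7.55, 7.18 and 6.96 in GFP+ cells and 3.33, 2.96 and 3.16 in GFP- cells (4.08 ± 0.186), and ocr-2 rose by 2.93. The partner subunit osm-9 rose by 0.80, a call lost without any GFP+ array or without GFP- replicate 1, at adjusted p of up to 0.0601. The polycystin lov-1, known from male sensory neurons, was lower (-0.94 ± 0.271, adjusted p = 0.0471), and this call was lost in every fit without 1 array but that without GFP- replicate 3, at adjusted p of up to 0.14. Of 41 G protein genes and their regulators, 22 rose and 1 fell (median 0.76). The G protein gamma subunit gpc-1 had 7.76, 7.89 and 7.58 in GFP+ and 3.49, 3.52 and 3.60 in GFP- cells (4.21 ± 0.125), and the alpha subunit gpa-18 had 9.05, 9.10 and 9.39 in GFP+ and 5.13, 5.48 and 4.89 in GFP- cells (4.01 ± 0.185). The alpha subunit gpa-12 fell, with 5.48, 5.39 and 5.24 in GFP+ and 6.52, 7.06 and 7.34 in GFP- cells (-1.60 ± 0.214), and without GFP- replicate 3 the list had 2 falls.

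Markers of single sensory neuron classes were compared next, since the reporter could be active in some classes and not in others. Of 4 markers of the thermosensory neuron AFD, the cyclases gcy-23, gcy-8 and gcy-18 rose by 3.04, 3.01 and 1.87. The values of gcy-8 were 8.30, 7.84 and 8.71 in GFP+ cells and 5.14, 5.26 and 5.43 in GFP- cells. The AFD homeobox gene ttx-1 overlapped between the fractions (0.63 ± 0.311, adjusted p = 0.204). Of 7 markers of the olfactory neurons AWA, AWB and AWC, 6 rose. The AWA receptor factor odr-7 had 6.81, 6.88 and 6.84 in GFP+ and 4.495, 4.79 and 4.57 in GFP- cells (2.22 ± 0.123), and the AWC receptor srsx-3 had 7.44, 8.18 and 8.03 in GFP+ and 3.85, 4.33 and 3.98 in GFP- cells (3.83 ± 0.227). The AWA diacetyl receptor odr-10 had 7.14, 7.98 and 9.26 in GFP+ cells, where it spread more widely than the others, and 4.19, 4.52 and 3.70 in GFP- cells (3.99 ± 0.514). The AWC receptor str-2 did not pass (0.11 ± 0.152), and the call of the AWB receptor str-1 (0.50 ± 0.138) was lost without any 1 array except GFP+ replicate 2, at adjusted p of up to 0.131.

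For the taste neuron ASE, 4 of 7 markers rose, and the changes were smaller. Its fate gene che-1 had 6.23, 5.46 and 6.17 in GFP+ cells and 4.76, 4.69 and 4.62 in GFP- cells (1.26 ± 0.216), and the cyclases gcy-5 and gcy-22 rose by 1.08 and 0.93. The cyclases gcy-6 and gcy-7 and the LIM gene lim-6 did not pass, at adjusted p of 0.218, 0.117 and 0.294, and the call of cog-1 (1.22 ± 0.335) was lost without any 1 array except GFP+ replicate 3, at adjusted p of up to 0.121. Of 16 markers of further amphid neurons, 7 rose and 0 fell. The TGF-beta ligand daf-7, known from ASI, had 9.11, 9.25 and 9.77 in GFP+ cells and 4.88, 4.88 and 4.88 in GFP- cells (4.50 ± 0.184, adjusted p = 3.88e-05), and the ASJ thioredoxin trx-1 rose by 1.95. The 9 that did not pass were mostly receptor genes, with changes from -0.15 ± 0.106 for gcy-21 to 0.46 ± 0.228 for srh-220. Of the 16, 5 had GFP+ means below the mean lower quartile of the GFP+ arrays. The call of ops-1 (0.53 ± 0.147) was lost without any 1 array except GFP- replicate 2, at adjusted p of up to 0.13. All 9 markers of neurons that sense oxygen and carbon dioxide rose (median 1.51). Besides gcy-33 they were led by gcy-32, with 6.47, 6.83 and 5.78 in GFP+ and 3.20, 3.14 and 3.32 in GFP- cells (3.14 ± 0.261). The BAG neuropeptide flp-17 ranged from 5.83 to 8.499 within GFP+ cells and from 3.37 to 4.59 within GFP- cells (3.13 ± 0.655, adjusted p = 0.0156), with its lowest value in both fractions on replicate 3, and without replicate 1 of GFP+ or of GFP- cells its adjusted p was 0.0507 and 0.0535. The calls of gcy-31 and gcy-34 (0.54 ± 0.131 and 0.57 ± 0.157) were lost without 4 and 5 of the 6 arrays in turn, at adjusted p of up to 0.0913 and 0.131; gcy-31 kept its call without GFP+ replicate 1 or GFP- replicate 3, and gcy-34 without GFP+ replicate 3.

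The chemoreceptor families, which encode most of the worm's candidate receptors for odours and tastes, behaved less evenly. Of 1276 genes measured, 186 rose (14.6%, beside 12.1% of all genes) and 7 fell (0.549%, beside 11.9%), and the median change was 0.17. Many were dim: 604 had GFP+ means and 762 had GFP- means below the mean lower quartile of the arrays of that fraction. The largest rises were those of odr-10, srsx-3 and sru-13 (3.77 ± 0.342), and sru-13 varied within GFP+ cells, with 7.11, 8.06 and 8.55, against 4.14, 4.25 and 4.02 in GFP- cells. The largest falls were those of str-31 (-1.31 ± 0.212) and str-262 (-1.17 ± 0.22). The count of rises was 118 without GFP- replicate 1, 115 without GFP+ replicate 2 and 120 without GFP+ replicate 3, and that of falls was 3 without GFP+ replicate 1 and 4 without GFP+ replicate 2 or GFP- replicate 1.

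Of 9 markers of dopamine and serotonin neurons, 6 rose and 0 fell (median 1.46). The cofactor enzyme cat-4 had 8.30, 8.81 and 8.04 in GFP+ cells and 5.97, 6.28 and 5.65 in GFP- cells (2.42 ± 0.244), the vesicular transporter cat-1 rose by 1.90, the decarboxylase bas-1 by 1.64, the dopamine transporter dat-1 by 1.54 and the serotonin enzyme tph-1 by 1.46. The dopamine enzyme cat-2 and the serotonin transporter mod-5 overlapped between the fractions, at adjusted p of 0.163 and 0.41. The homeobox gene ceh-43 had a change of -0.70 ± 0.298 (adjusted p = 0.149); it was 0.0368 with the replicate block and 0.0161 without GFP- replicate 2.

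Most genes used by all neurons rose in GFP+ cells, and their mean lay above the array medians in both fractions. Of 42 pan-neuronal genes, 34 rose and 0 fell (median 1.33), and their mean was 9.33, 9.23 and 9.16 on the GFP+ arrays against 8.02, 8.24 and 7.85 on the GFP- arrays. The largest rises were those of the Rab exchange factor aex-3 (2.58 ± 0.312), the synaptic vesicle GTPase rab-3 (2.36 ± 0.232) and the rabphilin rbf-1 (2.25 ± 0.274). For rab-3 the values were 10.84, 10.68 and 10.38 in GFP+ cells and 8.42, 8.60 and 7.81 in GFP- cells. Of 109 neuropeptide genes, 48 rose and 7 fell (median 0.73). The insulin-like daf-28, known from ASI and ASJ, had 8.74, 8.93 and 8.65 in GFP+ and 4.08, 4.07 and 4.04 in GFP- cells (4.71 ± 0.12, adjusted p = 1.85e-05), and flp-8 had 11.85, 11.73 and 11.59 in GFP+ and 7.56, 8.40 and 8.16 in GFP- cells (3.68 ± 0.224). Among the falls were nlp-29 (-1.45 ± 0.373) and nlp-31 (-1.45 ± 0.296), antimicrobial peptide genes known from the epidermis, and nlp-36 (-1.05 ± 0.213). Their calls were lost without some arrays: nlp-29 without any GFP+ array or GFP- replicate 1, nlp-31 without GFP+ or GFP- replicate 1, and nlp-36 without GFP+ replicate 1, at adjusted p of up to 0.108, 0.0552 and 0.0521. The list had 31 rises without GFP+ replicate 1, 30 without GFP- replicate 1 and 28 without GFP+ replicate 2, and 1, 1 and 3 falls; without GFP+ replicate 3 it had 4 falls. Of 56 neuronal transcription factors, 21 rose and 4 fell. The Dachshund homolog dac-1 had 8.88, 9.81 and 9.21 in GFP+ and 5.66, 5.98 and 5.86 in GFP- cells (3.47 ± 0.242), the forkhead factor fkh-8 rose by 2.60, and the Hox gene mab-5 fell by 0.79. The falls numbered 7 with the replicate block, and 2 without GFP+ replicate 1 or 2.

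Genes of other neuron types were read next. Of 11 touch receptor genes, 1 rose (9.09%, beside 12.1% of all genes) and 4 fell (36.4%, beside 11.9%), with a median of -0.33. The stomatin mec-2 had 6.23, 6.51 and 6.86 in GFP+ cells and 8.41, 8.04 and 7.99 in GFP- cells (-1.62 ± 0.2), the beta-tubulin mec-7 fell by 1.03 and the tubulin acetyltransferase mec-17 by 0.92. The alpha-tubulin mec-12 rose by 1.12, and the fate gene mec-3 overlapped between the fractions (0.20 ± 0.25). The fall of the channel mec-4 (-0.69 ± 0.201) was lost without any GFP+ array or GFP- replicate 2, at adjusted p of up to 0.147. Of 14 motor neuron genes, 0 rose and 2 fell (14.3%, near the 11.9% of all genes), and the median change was 0.19. The replicate numbers mattered here. Choline acetyltransferase cha-1 had 7.87, 8.52 and 7.48 in GFP+ cells and 6.88, 7.504 and 6.05 in GFP- cells, higher in GFP+ cells on each numbered pair, and its change was 1.15 ± 0.409 (adjusted p = 0.0919). With a block for the replicate number its adjusted p was 0.00257, and cha-1, unc-17, unc-47, cho-1 and acr-2 were then called higher, 5 of 14, at adjusted p of up to 0.0149. Without GFP- replicate 2, 4 of them were called. Since cha-1 and unc-17 lie in a shared locus, their signals are not independent. The GABA transporter snf-11 fell by 1.85, and the call of unc-129 (-0.89 ± 0.223) was lost without GFP+ replicate 2 or 3 or GFP- replicate 1 or 3, at adjusted p of up to 0.102.

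Of 11 genes of glutamatergic neurons and interneurons, the vesicular glutamate transporter eat-4, used by many sensory neurons, had 9.20, 9.28 and 9.65 in GFP+ cells and 5.91, 6.07 and 6.78 in GFP- cells (3.12 ± 0.252, adjusted p = 0.000347). The POU factor unc-86 was the other gene called (0.56 ± 0.12), and it was lost without GFP+ replicate 1 or 2 or GFP- replicate 1, at adjusted p of up to 0.0723. With the replicate block 6 of 11 were called higher, among them the glutamate receptor glr-1 (adjusted p = 0.0047 with the block and 0.0502 without it) and the interneuron factor ttx-3 (0.0133 with the block and 0.177 without it). Of 17 genes of glia, which wrap the sensory endings, 2 rose and 2 fell (median -0.11). These shares, 11.8% each, lie near the 12.1% and 11.9% of all genes, so no direction can be read from them. The list mean was 5.82, 5.74 and 5.98 on the GFP+ arrays and 6.09, 5.80 and 6.13 on the GFP- arrays. The patched-related daf-6, known from the glial channel around the cilia, had 6.68, 6.48 and 7.05 in GFP+ and 7.998, 7.98 and 8.495 in GFP- cells (-1.42 ± 0.209), and the Pax factor vab-3 rose by 1.03. With the block 6 of 17 were lower. The calls of mls-2 (0.93 ± 0.216) and ptr-10 (-0.74 ± 0.192) were lost without 4 and 5 of the 6 arrays in turn, at adjusted p of up to 0.08 and 0.102; mls-2 kept its call without GFP+ replicate 2 or GFP- replicate 1, and ptr-10 without GFP- replicate 2. Without GFP- replicate 2, 4 of the 17 were lower.

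Most contractile genes of body wall muscle fell in mutant GFP+ cells. Of 32 genes of the contractile apparatus, 24 fell and 1 rose (median -1.96), beside 11.9% of all genes lower; the rise, of unc-60, was lost without GFP+ replicate 1 or 2. Their mean was 8.46, 8.06 and 8.32 on the GFP+ arrays and 10.40, 9.84 and 9.86 on the GFP- arrays, so it stayed well above the array medians in GFP+ cells too. The troponin T gene mup-2 had 7.69, 6.69 and 7.46 in GFP+ cells and 11.70, 11.09 and 11.02 in GFP- cells (-3.99 ± 0.301, adjusted p = 0.000264). The calponin-like clik-1 fell by 3.62 and a second troponin T gene, tnt-3, by 3.54. Of 32 genes for muscle attachment and membrane, 17 fell and 3 rose (median -0.91). The type IV collagen let-2 had 6.95, 6.17 and 6.86 in GFP+ and 10.67, 9.66 and 10.51 in GFP- cells (-3.62 ± 0.319), and the sarcoglycan sgca-1 fell by 3.23. The 3 that rose encode ion channels that neurons use as well. They were the ryanodine receptor unc-68 (1.07 ± 0.197), the calcium channel egl-19 (0.88 ± 0.169) and the potassium channel slo-1 (0.66 ± 0.143); the call of slo-1 was lost without GFP+ replicate 1 or 2 or GFP- replicate 1, at adjusted p of up to 0.0656.

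Coelomocytes, the scavenger cells of the body cavity, were read from 6 genes, of which 5 fell (median -1.89). The channel gene cup-4 had 4.83, 4.53 and 4.94 in GFP+ cells and 8.41, 8.79 and 8.97 in GFP- cells (-3.96 ± 0.187, adjusted p = 5.94e-05), and unc-122 had 6.23, 6.23 and 5.72 in GFP+ and 8.98, 9.59 and 9.61 in GFP- cells (-3.33 ± 0.229). Of 39 genes of the intestine and lysosomes, 16 fell and 1 rose (median -0.42), and asp-5, cpi-1 and spp-10 were the largest falls. The cathepsin B gene cpr-1 rose, with 9.69, 9.70 and 9.73 in GFP+ and 8.20, 8.99 and 8.38 in GFP- cells (1.18 ± 0.21). Of 20 genes of the pharynx, 6 fell and 0 rose (median -0.31), and those that fell were ceh-34, a homeobox gene, and 5 genes of pharyngeal muscle. Among them, the myosin myo-2 fell by 1.16 and the troponin T tnt-4 by 1.00. The calls of tnc-2 (-1.19 ± 0.264) and tni-4 (-0.93 ± 0.254) were lost without 3 and 5 of the 6 arrays in turn, at adjusted p of up to 0.0652 and 0.105; tnc-2 kept its call without GFP+ replicate 2 or GFP- replicate 2 or 3, and tni-4 without GFP- replicate 3. The gland gene phat-2 had 8.60, 8.44 and 6.90 in GFP+ cells and 8.58, 8.45 and 6.79 in GFP- cells. Its values followed the replicate number and not the fraction (0.04 ± 0.611, adjusted p = 0.974), and phat-5 did the same, with 9.34, 9.10 and 7.40 in GFP+ and 9.26, 9.505 and 7.23 in GFP- cells.

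Epidermal and cuticle genes that passed the test were mostly lower in GFP+ cells, and several also varied with the replicate number. Of 99 epidermal and junction genes, 24 fell and 5 rose (median -0.28). The zona pellucida protein gene noah-1 had 8.27, 7.28 and 8.87 in GFP+ cells and 11.39, 10.08 and 11.74 in GFP- cells (-2.92 ± 0.533), lowest on replicate 2 in both fractions, and the moulting genes mlt-11 and mlt-8 fell by 3.32 and 2.87. The cadherin hmr-1 rose by 0.95, a call lost without GFP+ replicate 1 or 2 or GFP- replicate 2 or 3, at adjusted p of up to 0.0741. The number of falls was 10 without GFP+ replicate 1, GFP- replicate 1 or GFP+ replicate 3, and 7 without GFP+ replicate 2, and the number of rises was 1 or 2 without any 1 of the 6. Of 155 collagens, 55 fell and 1 rose (median -0.37), and 138 of the 155 changes were negative. Besides dpy-14, the largest falls were those of dpy-17, with 6.74, 5.92 and 6.82 in GFP+ and 10.54, 8.99 and 11.56 in GFP- cells (-3.87 ± 0.619), and dpy-2 (-3.66 ± 0.522). The collagen dpy-8 rose, with 7.14, 7.93 and 7.78 in GFP+ and 5.85, 5.82 and 5.77 in GFP- cells (1.80 ± 0.212). The falls numbered 30 without GFP+ replicate 1, 24 without GFP+ replicate 2, 31 without GFP+ replicate 3 and 27 without GFP- replicate 1.

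**Figure D3:**
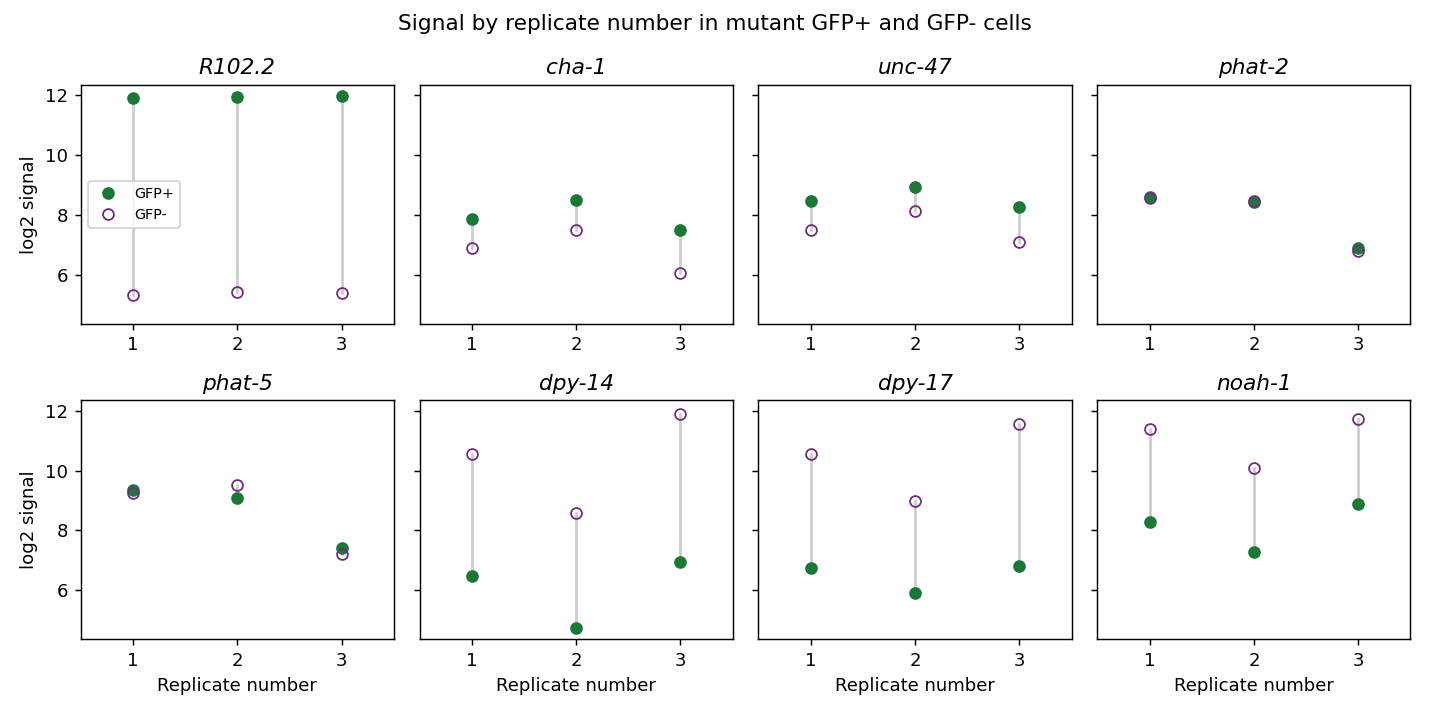
Log2 signal (y axis) of 8 genes against the replicate number, filled points for mutant GFP+ and open points for mutant GFP- cells, with a line joining the arrays of a number. R102.2 differed by fraction on every number, phat-2 and phat-5 dropped on replicate 3 in both fractions, and dpy-14, dpy-17 and noah-1 were lowest on replicate 2 in both.

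Genes of dividing cells that passed the test were mostly lower in GFP+ cells. Of 34 DNA replication genes, 15 fell and 2 rose (median -0.55). The helicase subunit mcm-7 had 6.77, 5.66 and 6.82 in GFP+ cells and 10.16, 8.95 and 10.55 in GFP- cells (-3.47 ± 0.479), lowest on replicate 2 in both fractions, and its partner mcm-5 fell by 2.16 and the origin recognition subunit orc-5 by 1.94. In the other direction the single-strand binding protein rpa-1 rose by 0.97 and orc-2 by 0.92. Of 63 genes of mitosis and the cell cycle, 26 fell and 4 rose (median -0.58). The spindle kinesin bmk-1 fell by 2.71, the kinetochore gene him-10 by 2.54 and the cohesin scc-1 by 2.52, while the centrosome gene spd-5 rose by 0.97. The falls in replication numbered 8 without GFP+ replicate 2 or GFP- replicate 1 and 9 without GFP+ replicate 3, and those in mitosis 15 without GFP+ replicate 2 and 17 without GFP+ replicate 3 or GFP- replicate 1. The rises in mitosis numbered 1 without GFP+ replicate 2 and 2 without GFP+ replicate 3, GFP- replicate 1 or GFP- replicate 2. Of 37 germline genes, 10 fell and 2 rose (median -0.24), with 5 falls without GFP- replicate 1 and 6 without GFP+ replicate 2 or 3. The P granule gene deps-1 had 4.27, 4.02 and 4.18 in GFP+ and 6.23, 6.35 and 6.52 in GFP- cells (-2.21 ± 0.133), and the Vasa-like helicase glh-1 fell by 2.23. The maternal zinc finger gene pos-1 rose, with 11.66, 11.48 and 11.73 in GFP+ and 9.50, 9.44 and 9.04 in GFP- cells (2.29 ± 0.16, adjusted p = 0.000208).

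Among genes needed in all cells, ribosomal protein genes fell in 49.3% and genes of oxidative phosphorylation in 34.1%, beside 11.9% of all genes. Of 75 ribosomal protein genes, 37 fell and 0 rose (median -0.63), and 74 of the 75 changes were negative. Their mean was 12.58, 12.23 and 12.06 in GFP+ cells and 13.12, 12.73 and 13.12 in GFP- cells. The largest fall was that of rpl-11.1, with 11.22, 11.16 and 10.73 in GFP+ and 12.45, 12.26 and 12.66 in GFP- cells (-1.42 ± 0.18), and most of these probe sets can bind related transcripts. The count of falls was 11 without GFP+ replicate 2 or GFP- replicate 1, 15 without GFP+ replicate 3 and 22 without GFP- replicate 3. Of 41 genes of oxidative phosphorylation, 14 fell and 0 rose (median -0.53). With the replicate block 26 fell, and without 1 array the falls numbered 8 (GFP+ replicate 1), 7 (GFP+ replicate 2), 6 (GFP+ replicate 3) and 5 (GFP- replicate 1). The complex III gene ucr-2.3 had 6.94, 6.64 and 6.38 in GFP+ and 7.83, 8.45 and 8.16 in GFP- cells (-1.49 ± 0.21). Of 33 proteasome genes, 3 rose and 0 fell (median 0.29), a share of rises (9.09%) below the 12.1% of all genes, and no more than 2 were called without any 1 array, with 0 without GFP+ replicate 1 or 2 and 1 without GFP+ replicate 3 or GFP- replicate 1. Of 21 heat shock genes, 6 fell and 0 rose, 3 without GFP+ replicate 2 or GFP- replicate 1; after hsp-12.1 the largest falls were those of hsp-12.3 (-2.85 ± 0.197) and hsp-25 (-1.70 ± 0.208).

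Of 14 genes of the microRNA pathway, 0 rose and 1 fell (7.14%, beside 11.9% of all genes), too few to read a difference or its absence. The gene that fell was vig-1, a component of the RISC complex, with 9.19, 9.22 and 9.24 in GFP+ cells and 10.12, 9.98 and 10.15 in GFP- cells (-0.87 ± 0.11, adjusted p = 0.00219). The Argonautes alg-1 and alg-2 had changes of -0.42 ± 0.349 and 0.33 ± 0.19 (adjusted p = 0.463 and 0.281), with overlapping ranges. On the WBcel235 annotation mir-124 lies on chromosome IV within the span of trpa-1, a TRPA-type channel gene. In mutant cells trpa-1 had 9.40, 9.70 and 9.54 in the GFP+ and 7.79, 8.07 and 7.85 in the GFP- fraction, a change of 1.64 ± 0.138 (adjusted p = 0.000397). The rescue marker of the transgene was carried by every group, and lin-15A rose by 0.71 (adjusted p = 0.0188), a call lost without GFP+ replicate 2 or GFP- replicate 1 at adjusted p of up to 0.0528. Its neighbour lin-15B did not pass (0.85 ± 0.265, adjusted p = 0.0604), and had an adjusted p of 0.0231 with the replicate block and 0.00305 without GFP- replicate 3.

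Some genes are read by several probe sets, which can report different transcripts. Of 2981 such genes, 1163 had at least 1 probe set called, and in 491 of these every probe set was called the same way, in 663 only some were, and in 9 probe sets were called in both directions. The actin-binding protein gene unc-60 is known to make a broadly expressed and a muscle isoform. Its probe set 171748_x_at had 11.74, 11.496 and 11.44 in GFP+ cells and 11.01, 10.46 and 10.36 in GFP- cells (0.95), and 174141_at rose by 1.03, whereas 193210_s_at had 7.79, 7.49 and 7.51 in GFP+ cells and 10.93, 10.58 and 10.33 in GFP- cells (-3.02). The probe set 171748_x_at, the brightest, stood for the gene in the muscle list and is the only rise counted there; its call was lost without GFP+ replicate 1 or 2 (adjusted p = 0.0587 and 0.0507). The ankyrin unc-44 had probe sets with changes of 0.90 and 1.69 and others of -0.77 and -1.80. The fibulin fbl-1 had changes of -2.30 and 0.97, and lect-2 of -3.05, -1.70 and 0.56. Which transcript each probe set reads was not tested.

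**Figure D4:**
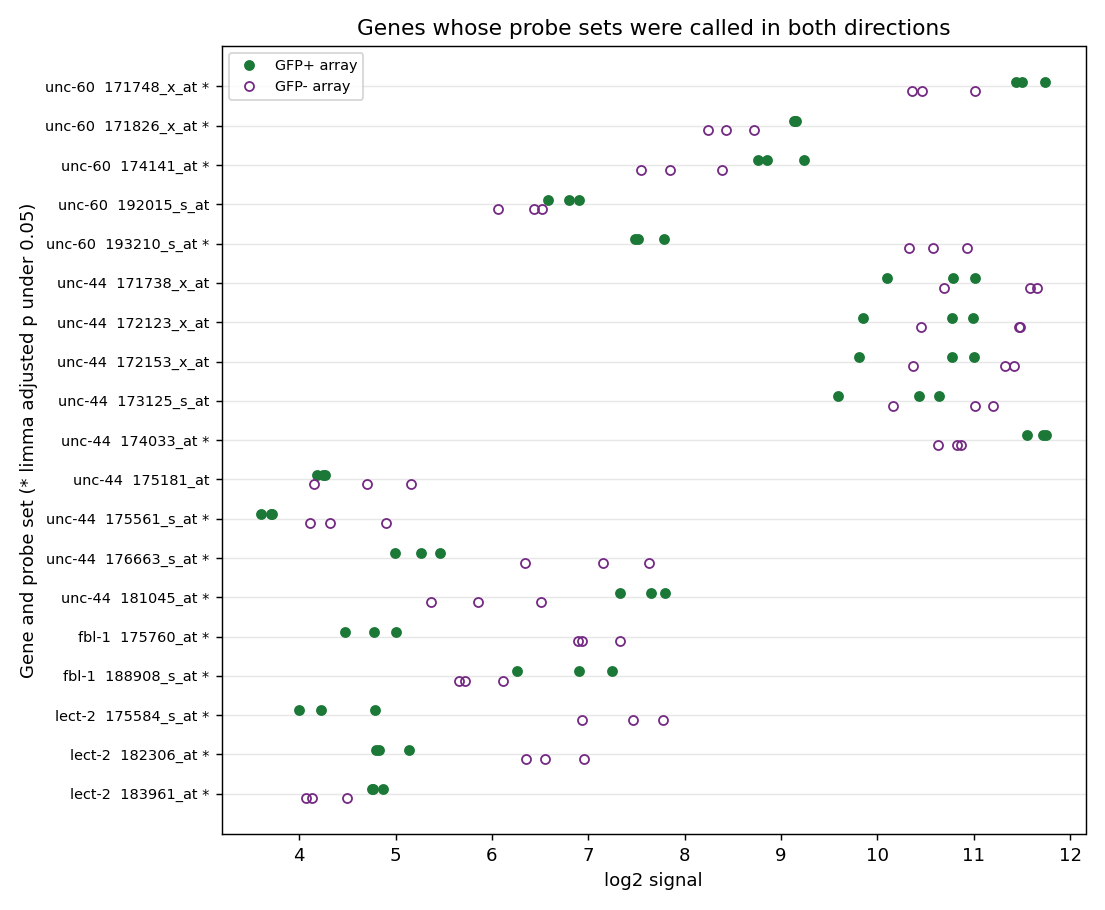
Log2 signal (x axis) of every probe set of unc-60, unc-44, fbl-1 and lect-2, 1 point per array, filled for mutant GFP+ and open for mutant GFP- cells, with a star for probe sets past the threshold. The probe set 193210_s_at of unc-60 lay lower in GFP+ cells and the others of that gene that were called lay higher.

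The wild-type arrays gave an independent reading of the same fractions. Of the 2078 genes higher in mutant GFP+ cells, 1995 (96.0%) had both wild-type GFP+ arrays numbered 1 and 2 above both GFP- arrays of these numbers, beside 26.9% of all genes, and 0 had the opposite order. Of the 2033 lower genes, 1965 (96.7%) had the wild-type GFP+ arrays below, beside 31.1% of all genes, and again 0 had the opposite order. With the third wild-type pair included, 343 of the higher genes (16.5%, beside 5.6% of all genes) and 419 of the lower genes (20.6%, beside 5.3%) kept the order in that strain. In that pair, the library with the label wild-type GFP- replicate 3 resembled the GFP+ libraries. Its transition zone mean was 9.002, against 5.43 and 5.22 in the other wild-type GFP- libraries, and its coelomocyte mean was 5.5, against 7.44 and 7.48. The limma fit of all 6 wild-type arrays alone called 0 probe sets (1531 at an unadjusted p under 0.05), and without the third pair it called 2200 higher and 2383 lower. Across the 17118 genes, the mutant change and the wild-type change over replicates 1 and 2 had a Pearson correlation of 0.956, given as a description, since genes share arrays and are not independent.

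**Figure D5:**
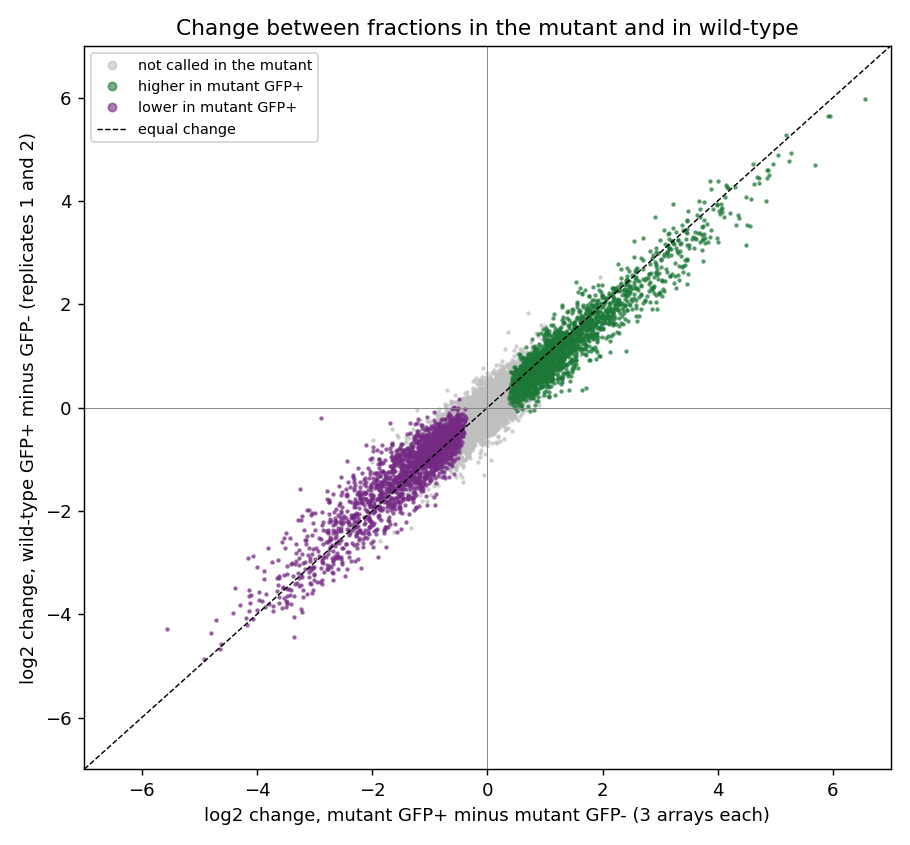
Log2 change of each gene in mutant GFP+ against mutant GFP- cells (x axis, 3 arrays each) and in wild-type GFP+ against wild-type GFP- cells (y axis, replicates 1 and 2), coloured by the call in the mutant, with a dashed line for equal change. Genes called in the mutant lay along the line on both sides of 0.

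Whether the difference between the fractions itself differed between the mutant and wild-type strains was tested with the interaction of strain and fraction. It called 0 probe sets with all 12 arrays (329 at an unadjusted p under 0.05, smallest adjusted p 1) and 0 without the third wild-type pair (266 at an unadjusted p under 0.05). The fit of all 12 arrays holds the third wild-type pair, whose GFP- library resembled the GFP+ libraries, so its lack of calls carries little weight. With the replicate number as a block the interaction of 12 arrays called 0 as well (592 at an unadjusted p under 0.05). No change described above is therefore shown to be particular to the mutant. Without mutant GFP- replicate 2, 1 probe set was called, that of F55C9.3. It had 3.504, 3.42 and 3.34 in mutant GFP+ cells and 6.65, 5.31 and 6.99 in mutant GFP- cells, beside 3.24, 3.08 and 3.17 in wild-type GFP+ cells and 3.33, 3.39 and 3.51 in wild-type GFP- cells, and the interaction in that fit was -3.15 ± 0.195 (adjusted p = 0.000938). In the fit without the third pair, the gene with the smallest unadjusted interaction p was tag-296 (1.24 ± 0.199, unadjusted p = 0.000142). The TGF-beta gene daf-7, picked because it is described above, was among the 10 genes with the smallest unadjusted p in that fit. Its mutant GFP+ values of 9.11, 9.25 and 9.77 lay above the wild-type GFP+ values of 8.13, 8.09 and 7.99, and its interaction there was 1.35 (unadjusted p = 0.00172, adjusted p = 1).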

How the data were processed

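RNA from sorted cells was amplified, labelled with biotin and hybridised to Affymetrix arrays, per the labels' protocols. The deposited values are log2 signals, with 1 value for each probe set on each array. RMA, MAS5, affy and limma are named in the submitters' processing notes, without their roles, and the values were not scaled again here. The array medians were close, and a shift shared by all transcripts of a fraction could not be tested from such values. The number of arrays limits the precision.

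Of 22625 probe sets, 77 controls were set aside. The platform annotation gave 20766 of the rest 1 gene, 887 several and 895 none, and gene identifiers looked up in the RefSeq annotation of WBcel235 changed 0 symbols. Each of 17118 genes was represented by its brightest probe set over the 6 mutant arrays among those with 1 gene. The fit used limma 3.58.1 in R 4.3.3 (lmFit and eBayes, 2-sided) on the 6 mutant arrays, with Benjamini-Hochberg adjustment over 22548 probe sets and a threshold of 0.05. It was also run on simulated data with independent noise on each array. Such data lack the shared deviations of same-numbered arrays given below, so they do not test the unblocked fit under pairing. The interaction used all 12 arrays with 4 group means. Tables and figures were made with Python 3.11.15, pandas 2.3.3 and matplotlib 3.10.9.

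Named genes were the 15 largest rises and falls without overlap of replicate ranges, the 3 largest rises and falls of each of 42 gene lists, and every member of the short marker lists. The members, the lists and this rule were chosen with earlier results of these data known. Genes with probe sets called both ways, leading members of gene classes, F55C9.3 and the genes shown by replicate number were chosen after their values were seen. Promoter sequences were not used here.

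Same-numbered GFP+ and GFP- arrays deviated together from their group means (correlations across probe sets of 0.36, 0.435 and 0.359, against -0.307 to -0.0585 for other pairs), so the titles' replicate numbers were read as pairing the arrays. The fit did not block on them, and blocked values stand beside only some of the results they change. With the block, falls went from 37 to 53 in ribosomal proteins and from 26 to 35 in mitosis. Falls went from 24 to 32 in epidermis and from 10 to 15 in germline genes, and neuropeptide rises from 48 to 60. Other alternatives were fits of 12 and 10 arrays, quantile normalization, 1 common median, array weights, leaving out the 25% of probe sets with the lowest signal, eBayes with a trend or made robust, a log2 change of at least 1, the most variable probe set per gene for the lists, and each array left out. The blocked fit of 10 arrays for the interaction was added after seeing the data.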

Additional observations from a re-analysis of the deposited data

How the results depend on the processing

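No direction among the 5163 probe sets called was reversed in the alternative fits, but most of these fits could not reverse one. The fits of 12 or 10 arrays, with the block, with a trend or made robust keep the same difference of group means. Leaving out 1 array cannot reverse a change whose replicate ranges do not overlap. The count of probe sets called was 2730 (1309 higher and 1421 lower) when all 12 arrays shared the estimate of spread. That fit includes the wild-type pair numbered 3, and without the pair the count was 6195 (3035 higher and 3160 lower). A change of at least 1 on the log2 scale was met by 3020 (1444 higher and 1576 lower). Leaving out 1 array gave 3103 to 5050 calls, 1682 to 2489 higher and 1421 to 2710 lower; the cause was not tested. The other settings gave 5053 to 6867 calls. The replicate block gave the highest of these counts, 6867 (3238 higher and 3629 lower), with 5093 of the 5163 calls among them; of the 329 named genes it changed the calls of 20, gaining 19 and losing pde-4, and the counts it moved by over 1.5 times are given with their lists. The interaction had 0 calls in the fit of 10 arrays, with the replicate block on 12 or 10 arrays, after quantile normalization and without the dimmest probe sets, and leaving out 1 of the 12 arrays gave 0 to 1, the 1 without mutant GFP- replicate 2; other settings were not run for it. Of 84 list counts, 35 moved by over 1.5 times in the 12-array fit. They included the rises of chemoreceptors (106), neuropeptides (25), guanylyl cyclases (15), G proteins (13), neuronal transcription factors (11), IFT-B (8), transition zone (8) and cGMP signalling (6) and the falls of DNA replication (6), germline (6) and oxidative phosphorylation (1). With a change of at least 1 required, 25 moved, among them chemoreceptor rises (89), guanylyl cyclase rises (15) and the falls of replication (8), germline (6), ribosomal proteins (10) and oxidative phosphorylation (2). The last list had 26 falls with array weights and 9 with 1 common median. The other settings moved 0 to 7 list counts, and leaving out 1 array moved 6 to 22. Ribosomal protein genes had 23 falls after quantile normalization, 26 with 1 common median and 4 in the 12-array fit, against 37. Small changes of dim probe sets are limited by signal over background, which was not measured here.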

Other observations

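Gene classes (the letters before the hyphen) overlap with the lists, and gcy, rps and rpl hold the same genes as lists described above. Among 165 classes with at least 10 measured genes, the classes with the highest shares of rises in mutant GFP+ cells were dyf (11 of 12), che (8 of 10), gcy (23 of 32), osm (7 of 10), glb (19 of 30), gpa (11 of 18), frpr (10 of 17) and flp (14 of 25), beside 12.1% of all genes. Several of these classes were named for defects of cilia or of chemosensation. The globin class glb was in none of the lists. Its gene glb-14 had 8.42, 8.15 and 7.77 in mutant GFP+ cells and 5.16, 5.80 and 4.46 in mutant GFP- cells (2.97 ± 0.345, adjusted p = 0.00149), and glb-27 rose by 2.58. The frpr class, predicted receptors for FMRFamide-like peptides, was led by frpr-9, with 6.73, 7.67 and 7.89 in GFP+ cells and 5.18, 4.97 and 5.02 in GFP- cells (2.37 ± 0.294).

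The classes with the highest shares of falls were lec (8 of 12), rps (15 of 30), cpg (6 of 12), rpl (22 of 45), ttr (19 of 40), dbd (6 of 13), dhs (13 of 30) and inx (9 of 21), beside 11.9% of all genes. The galectin lec-5 had 6.95, 6.03 and 6.44 in mutant GFP+ cells and 11.14, 10.32 and 9.54 in mutant GFP- cells (-3.86 ± 0.42, adjusted p = 0.00114). The transthyretin-like ttr-6 had 5.97, 5.66 and 5.82 in GFP+ cells and 9.74, 9.70 and 9.16 in GFP- cells (-3.72 ± 0.188). The dehydrogenase dhs-28, known from peroxisomal fatty acid breakdown, had 3.80, 3.85 and 4.04 in GFP+ cells and 7.76, 8.19 and 7.74 in GFP- cells (-4.0 ± 0.161). The innexin inx-15, of the gap junction family, had 4.30, 4.42 and 4.93 in GFP+ cells and 6.85, 6.78 and 7.94 in GFP- cells (-2.64 ± 0.339).

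By chromosome, 19.5% of the 2260 protein-coding genes measured on X rose (441) and 13.8% fell (311), while 10.5% to 12.3% of the genes on each autosome rose and 9.58% to 14.8% fell, with the highest share of falls on III. A subset of brighter genes held 1267 of the 2260 genes on X and 1490 of the 3957 on V. In it 27.1% rose on X, against 21.5% on V, 18.6% of 1341 on IV and 13.3% to 15.6% on the other autosomes. The 12.1% of all genes is not the background of this subset. These shares are given as counts without a test. Of 7023 genes named only by a clone, 9.14% rose and 10.5% fell.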
